A study of Mus musculus with 24 samples.

Results

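A total of 35581 autosomal CpGs were read as fully methylated in the dentate gyrus of 4 young mice, and their methylation was followed in 20 other mice. The CpGs were chosen by measured values. Each was measured in 3 or 4 of the mice Young STD 1 to 4, with exactly 100% every time, and also in 3 or 4 of Young STD 5 to 8. They made up 5.12% of the 694379 CpGs in the table, 5.29% of the 672847 autosomal CpGs and 19.3% of the 183893 autosomal CpGs covered as often in both sets of young mice. The values of Young STD 1 to 4 served only for this choice, so they carry no result, and all results below come from the held-out mice Young STD 5 to 8, Aged STD 1 to 8 and Aged ENR 1 to 8.

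All mice were female C57BL/6JRj mice with no genetic manipulation named in the labels. Young STD mice were 3 months old and lived in standard cages (STD). Aged STD mice were 17 months old and lived in standard cages, and Aged ENR mice were 17 months old and had spent their last 3 months in an enriched environment (ENR), large cages with toys that were rearranged. Each library came from the micro-dissected dentate gyrus of a single mouse, which holds granule neurons together with interneurons, glia, vessel cells and precursor cells, so a change in cell composition and a change within cells cannot be told apart. The comparison of Aged STD with Young STD mice asks what aging does at these CpGs, and that of Aged ENR with Aged STD mice asks whether late ENR changes it.

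In mammalian DNA most cytosines followed by a guanine carry a methyl group. The mark is copied to the new strand by Dnmt1 after replication, is laid down anew by Dnmt3a and Dnmt3b, and is oxidized by Tet enzymes on the way to its removal. Reduced representation bisulfite sequencing (RRBS) cuts DNA at the sequence CCGG with the enzyme MspI, converts unmethylated cytosines, and gives for each CpG the percentage of reads in which it was methylated. The authors required 10 or more reads for a value. A value of 100% therefore says that every read was methylated, not that every cell was, and the exact number of reads behind each value is unknown.

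The sequences around several of these CpGs are shown first, because their values are described in detail below. They are 30 bases of the GRCm38 reference, read on the plus strand from RefSeq, with the CG in capitals. The first 4 had lower means in aged than in young mice, the next 3 had higher means in Aged ENR than in Aged STD mice, and the last 4 had lower ones.
chr6:123128370-123128399, intron of Clec4a2: ctccgctcaagtccCGggaagagctggcca
chr12:33607327-33607356, intergenic: aaattgtgtttgccCGgttatttcagtaca
chr1:19441826-19441855, intergenic: tgttccaattgttcCGgtttgggcagtaag
chr1:19441788-19441817, intergenic: ctttgggtgataatCGagtacagcactatt
chr7:82239866-82239895, intron of Sh3gl3: tgtgttgcctgagcCGgaacaaaatctgcc
chr3:34593942-34593971, intron of Sox2ot: gtcctcatgaaataCGataggtctccttct
chr14:50238840-50238869, promoter of Olfr731: agtaacacgaattcCGgcactctggaatgg
chr16:89988683-89988712, intron of Tiam1: taagaggagccaggCGatctcccgggcctg
chr19:59279546-59279575, intron of Slc18a2: tttgttgaataccaCGcatttccttcctgg
chr5:125475104-125475133, promoter of Aacs: ttctctgctggcctCGaactcagaaatcca
chr2:168183398-168183427, exon of Adnp: agctttttctcaacCGgatgaactgtctga

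Compared with all autosomal CpGs of the table, the chosen CpGs lay more often outside genes and less often at promoters. Intergenic CpGs were 48.9% of them against 24.3% of autosomal CpGs, and intronic CpGs were 31.9% against 20.3%. CpGs within 1 kb of a start site, here called promoter CpGs, were 9.47% against 48.5%, and exonic CpGs further away were 9.81% against 6.92%. Soft-masked repeat sequence held 36.3% of them and 13.4% of autosomal CpGs. The MspI site CCGG surrounded 50.7% of them against 34.4%. CpGs with no other CpG within 35 bp were 27.1% against 15.2%. The chosen CpGs fell into 20669 windows of 1 kb, and 23436 of the chosen CpGs shared their window with another. They made up between 3.37% of all CpGs of the table on chromosome 11 and 6.43% on chromosome 3. These shares describe what the choice picked out. The same kind of choice for CpGs at exactly 0% in every value of Young STD 1 to 4 gave 70120 CpGs, which serve below as a counterpart.

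The held-out mice were close to one another at these CpGs, whatever their age and housing. Young STD mice had a mean methylation of 94.1% ± 0.4004 (SD, n = 4), Aged STD mice of 93.9% ± 1.31 (SD, n = 8) and Aged ENR mice of 94.2% ± 0.272 (SD, n = 8). The 4 young mice had means of 93.5%, 94.2%, 94.2% and 94.4%. The lowest, median and highest Aged STD mice had 90.7%, 94.3% and 94.7%, and the Aged ENR mice had 93.7%, 94.2% and 94.5%. The groups overlapped, and the step from 100% to about 94% was already present in young mice that had not taken part in the choice. Aged STD mice differed from Young STD mice by -0.160 points (SE 0.506, adjusted p = 0.986 in an exact two-sided permutation test over mice), Aged ENR from Aged STD mice by 0.256 points (SE 0.474, adjusted p = 0.986, exact permutation) and Aged ENR from Young STD mice by 0.0960 points (SE 0.222, adjusted p = 0.986, exact permutation), with adjustment over 9 tests.

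Single mice set the signs of these differences. Without Young STD 5, the difference of Aged ENR from Young STD mice was -0.100 points. Aged STD 5 had the lowest mean, 90.7%, and covered 13978 of the chosen CpGs, fewer than any other mouse. Over the whole table it covered 380399 CpGs, more than Aged STD 1 (362169), Aged STD 8 (323088) and Aged ENR 1 (308751). Without Aged STD 5, the Aged STD mean was 94.4%, which was 0.302 points above the young mean (exact permutation p = 0.0667). Aged ENR mice were then 0.206 points lower than Aged STD mice (exact permutation p = 0.0929). Neither of the last 2 differences passed the test with or without Aged STD 5.

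**Figure D1:**
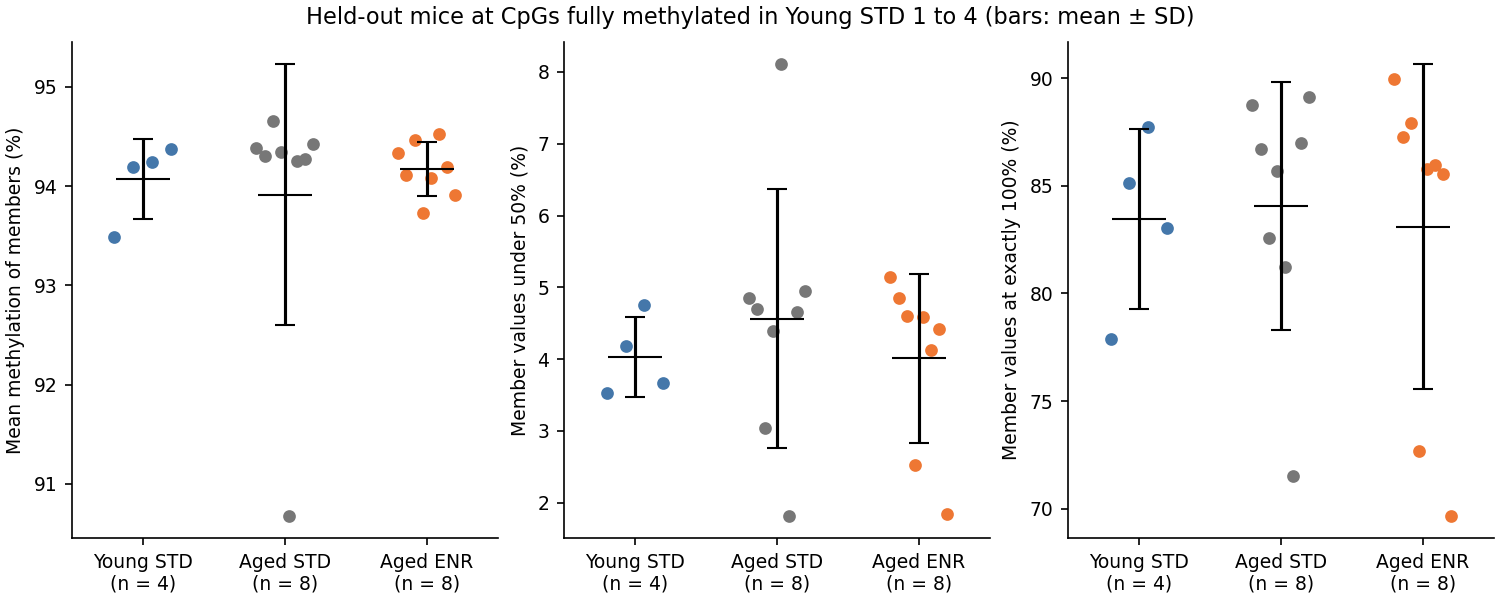
Mean methylation, the share of values under 50% and the share at exactly 100% over the 35581 CpGs, each in percent, for the held-out mice of the 3 groups. Points are mice and bars give the mean ± SD. Aged STD 5 stands apart in the first panel at 90.7%, and the groups overlap in all panels.

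Low values made up a few percent in every group, young mice included. Young STD mice had 4.03% ± 0.560 (SD, n = 4) of their values under 50%, Aged STD mice 4.56% ± 1.8004 (SD, n = 8) and Aged ENR mice 4.01% ± 1.18 (SD, n = 8). The young mice had 3.53%, 4.18%, 4.76% and 3.66%. Aged STD mice ranged from 1.82% through a median of 4.68% to 8.11%, the highest being Aged STD 5, and Aged ENR mice from 1.84% through 4.4995% to 5.14%. Both aged groups reached below and above the young range. Values of exactly 0% were rarer still, and Young STD mice had 1.47% ± 0.709 (SD, n = 4) of them, Aged STD mice 2.20% ± 1.29 (SD, n = 8) and Aged ENR mice 1.81% ± 1.01 (SD, n = 8). The difference in values under 50% was 0.531 points (SE 0.695) between Aged STD and Young STD and -0.554 points (SE 0.761) between Aged ENR and Aged STD mice, and neither passed (adjusted p = 0.986 for both, exact permutation). Without Aged STD 5 these differences were 0.0250 points (exact permutation p = 0.933) and -0.0477 points (exact permutation p = 0.901). Without Aged STD 6 instead, they were 0.923 points (exact permutation p = 0.242) and -0.945 points (exact permutation p = 0.196).

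Most values were at the ceiling again. Young STD mice were at exactly 100% in 83.4% ± 4.18 (SD, n = 4) of their values, Aged STD mice in 84.1% ± 5.77 (SD, n = 8) and Aged ENR mice in 83.1% ± 7.54 (SD, n = 8), with no group difference past the test (adjusted p = 0.986 for all 3, exact permutation). The spread between mice of a group was larger than any difference between groups. The young mice had 77.9%, 85.1%, 87.7% and 83.0% of values at 100%. Aged STD mice ranged from 71.5% through 86.2% to 89.1%, and Aged ENR mice from 69.7% through 85.9% to 89.97%.

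This spread went with how many CpGs of the whole table a mouse covered. In 3 mice, Aged STD 6, Aged ENR 4 and Aged ENR 8, between 587562 and 608017 CpGs had a value, against 308751 to 490046 in the others. These 3 mice had the fewest values at 100%, at most 72.7% against at least 77.9% in the others, and the fewest under 50%, at most 2.52% against at least 3.03%. Among the other 17 mice, those with more covered CpGs had a lower share at 100% (Pearson r = -0.529, permutation p = 0.0265, adjusted p = 0.0796; Spearman rho = -0.576, permutation p = 0.0176, adjusted p = 0.0264). Without the 2 mice whose coverage was farthest from the median, r was -0.393, and it was -0.210 among 7 Aged STD and -0.974 among 6 Aged ENR mice. The share under 50% had r = -0.406 (permutation p = 0.0995, adjusted p = 0.149) and rho = -0.750 (permutation p = 0.000760, adjusted p = 0.00228), its r was -0.350 after the same omission, and it was -0.168 among the 7 Aged STD and -0.893 among the 6 Aged ENR mice. Mean methylation had r = 0.0717 (permutation p = 0.866, adjusted p = 0.866) and rho = -0.157 (permutation p = 0.550, adjusted p = 0.550). In the 3 mice with most covered CpGs, values from 50 to under 90% made up 16.3% to 18.4%, against at most 13.5% in the others, and values from 90 to under 100% made up 8.55% to 10.1%, against at most 5.15%. These mice thus held more intermediate values. The part of read depth in these shares was not tested.

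**Figure D2:**
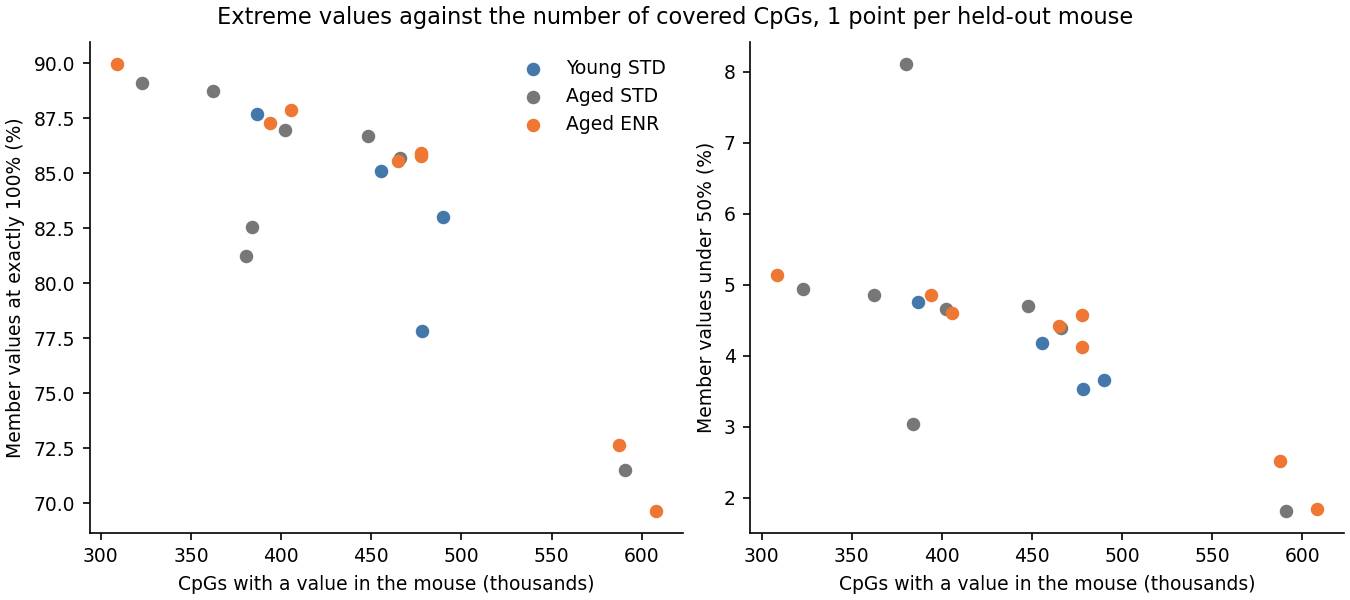
Share of values at exactly 100% (left) and under 50% (right), in percent, against the number of CpGs with a value in the mouse, with 1 point per held-out mouse. The 3 mice with the most covered CpGs have the lowest shares in both panels.

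Most CpGs were under 50% in no held-out mouse or in a single one, while a small set held many of the low values. Of the 35581 CpGs, 6320 (17.8%) were at exactly 100% in every held-out value, 22433 (63.0%) were under 50% in no held-out mouse, 8631 (24.3%) in 1 mouse, 2707 in 2, 1014 in 3, 404 in 4, 181 in 5 and 211 in 6 or more. Only 119 were under 50% in at least 1 of every 2 mice with a value. The mean over all held-out mice was 99% or more at 9915 CpGs, 90 to under 99% at 18772, 75 to under 90% at 5775, 50 to under 75% at 1016 and under 50% at 103. The 3558 CpGs with most low values held 50.1% of the 21155 values under 50%. CpGs had values in different numbers of mice, and 981 had one in all 20.

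The 211 CpGs that were under 50% in 6 or more mice were spread over 193 windows of 1 kb and all 19 autosomes. Repeats held 11.8% of them, against 36.3% of all chosen CpGs, and CpGs flanked on both sides by A or T held 13.7% against 9.86%. These 211 were picked by the values described, so the shares are a description. The largest group was 4 CpGs between chr1:57868943 and chr1:57868996 in an intron of Spats2l, with group means of 27.5% for Young STD, 36.9% for Aged STD and 70.3% for Aged ENR mice. Next came 3 CpGs between chr5:141116078 and chr5:141116110, outside any gene, of which the Aged STD mean was 20% and the Young STD and Aged ENR means were 10.2% and 6.17%. Another 13 windows held 2 such CpGs each, and the Aged STD mean was below the Young STD mean in 9 of them. Near Il20ra, a cytokine receptor gene, the means were 86.4%, 25% and 68.7% in the order Young STD, Aged STD, Aged ENR, and in the promoter of Adamts20 they were 66.7%, 46.9% and 40.8%. In an intron of Chd7, which encodes a chromatin remodeller, they were 27.5%, 43.5% and 58.6%. Over all 211 CpGs the means were 53.5%, 48.1% and 48.7%. Since 16 of the 20 mice were aged, the choice of CpGs low in 6 or more mice required low values in aged mice, and these group means are a description only. The CpGs that stayed at 100% throughout, 6320 in number, were in repeats for 39.0% and had A or T on both sides for 6.76%.

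CpGs that were low in the held-out young mice were higher in aged mice, and CpGs at 100% in them were lower. This is described without a test against the young mice, since their values made the bins. At the 20501 CpGs with a held-out young mean of 100%, Aged STD mice had 95.6% ± 0.844 (SD, n = 8) and Aged ENR mice 95.8% ± 0.169 (SD, n = 8). At 7435 CpGs with 90 to under 100%, the aged means were 94.3% and 94.4%, and at 5160 CpGs with 75 to under 90%, with a young mean of 83.6%, they were 91.1% and 91.6%. At 2182 CpGs with 50 to under 75% (young mean 66.0%), they were 85.6% and 86.3%. At the 303 CpGs under 50% (young mean 37.5%), they were 72.4% ± 7.72 (SD, n = 8) and 72.6% ± 2.44 (SD, n = 8). Aged ENR and Aged STD mice, whose values did not enter the bins, had no difference that passed in the 5 bins (0.0839 to 0.734 points, adjusted p = 0.977 for each, exact permutation). Without Aged STD 5, all 5 differences turned negative, from -0.104 to -2.31 points, and none passed (adjusted p of at least 0.236, exact permutation). Both the test in these bins and this alternative were added after the data were seen.

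**Figure D3:**
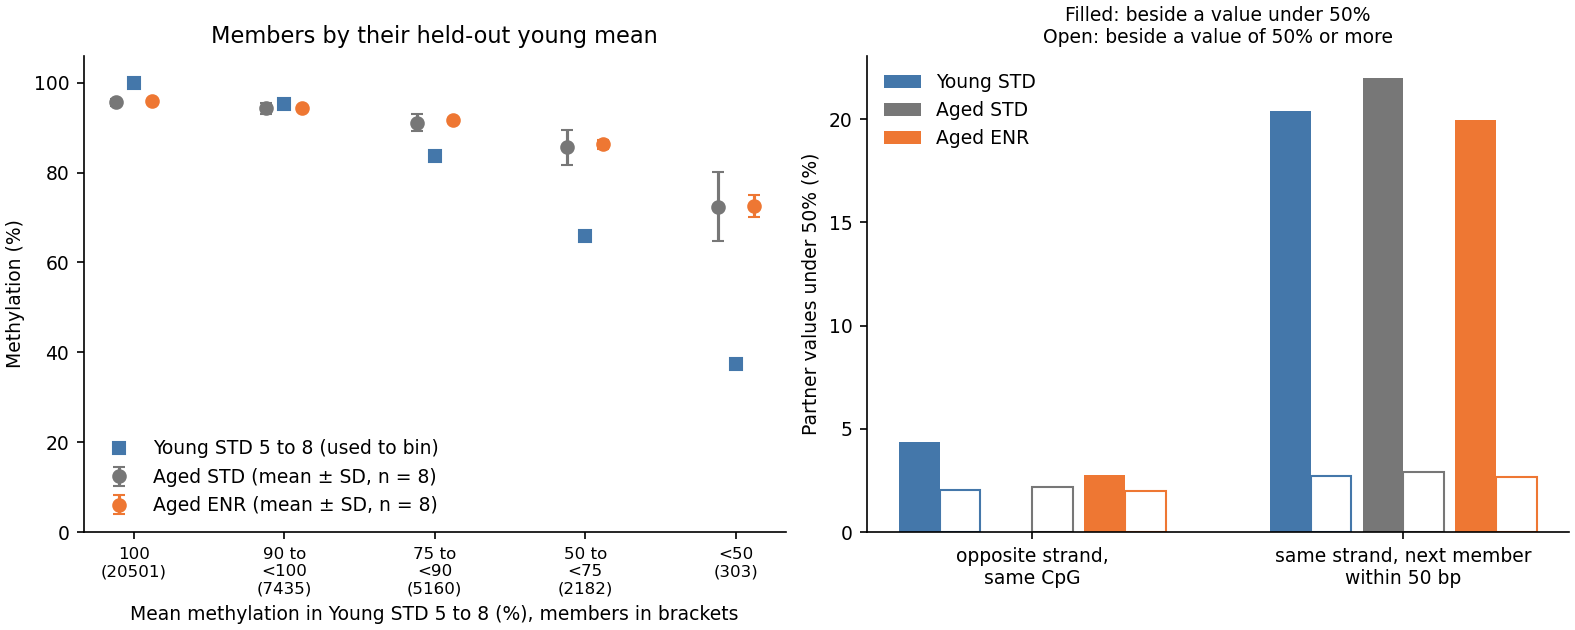
Left, mean methylation (%) of CpGs binned by their mean in Young STD 5 to 8, with the mean ± SD of 8 Aged STD and 8 Aged ENR mice; at 303 CpGs with a young mean under 50% the aged groups are at 72.4% and 72.6%. Right, the share of partner values under 50% beside a value under 50% (filled) or of 50% or more (open); same-strand neighbours share low values in 19.98% to 21.98% of cases, opposite strands in at most 4.35%.

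The boundary of the choice was gradual. The 12746 CpGs with all 4 values at 100% in Young STD 1 to 4 had means of 94.997%, 94.8% and 95.03% in the held-out Young STD, Aged STD and Aged ENR groups, and the 22835 with 3 such values had 93.5%, 93.3% and 93.6%. Just outside, 5639 CpGs with a single value below 100% and a mean of at least 95% had 91.8%, 92.1% and 92.5%, and 26972 CpGs with only 2 values, both at 100%, had 91.6%, 91.1% and 91.3%.

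Low values were about as frequent beside a low as beside a high value on the opposite strand. Both cytosines of a CpG were among the chosen at 363 places. Where either was under 50% in a mouse (185 values), its partner on the other strand was under 50% in 2.16% of cases and had a mean of 95.4%, while beside a value of 50% or more the partner was under 50% in 2.07% and had a mean of 96.0%. Neighbours on the same strand behaved differently. For 11312 pairs of successive chosen CpGs at most 50 bp apart, 20.8% of the 11110 values under 50% had a neighbour also under 50% in the same mouse, against 2.75% beside a value of 50% or more, and the neighbour means were 80.4% and 95.5%. Even so, 71.6% of the neighbours of a low value were at exactly 100%. By group, the share of low neighbours was 20.4% for Young STD, 21.98% for Aged STD and 19.98% for Aged ENR mice, and 4.35%, 0% and 2.74% of opposite-strand partners did, on 46, 66 and 73 low values. Same-strand neighbours this close can lie on the same read, whereas opposite strands of a CpG are read separately. The part of shared reads in these shares was not tested. These are descriptions over pairs, which are not independent.

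Methylation differed between sequence and position classes of the chosen CpGs within the same mouse. CpGs flanked on both sides by A or T (WCGW, where W stands for A or T), a context known to lose methylation in dividing cells, had means of 91.9% ± 0.268 (SD, n = 4), 92.2% ± 0.923 (SD, n = 8) and 92.4% ± 0.395 (SD, n = 8) in the Young STD, Aged STD and Aged ENR groups. Those flanked by G or C on both sides (SCGS) had 94.4% ± 0.514, 94.2% ± 1.62 and 94.5% ± 0.324 in the same mice. WCGW CpGs were lower than SCGS CpGs in 20 of 20 held-out mice, by 2.16 points on average (SD 0.583; adjusted p = 2.29e-06 by an exact sign-flip test over 20 mice, the smallest it can give after adjustment here). They numbered 3507 and 22533.

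**Figure D4:**
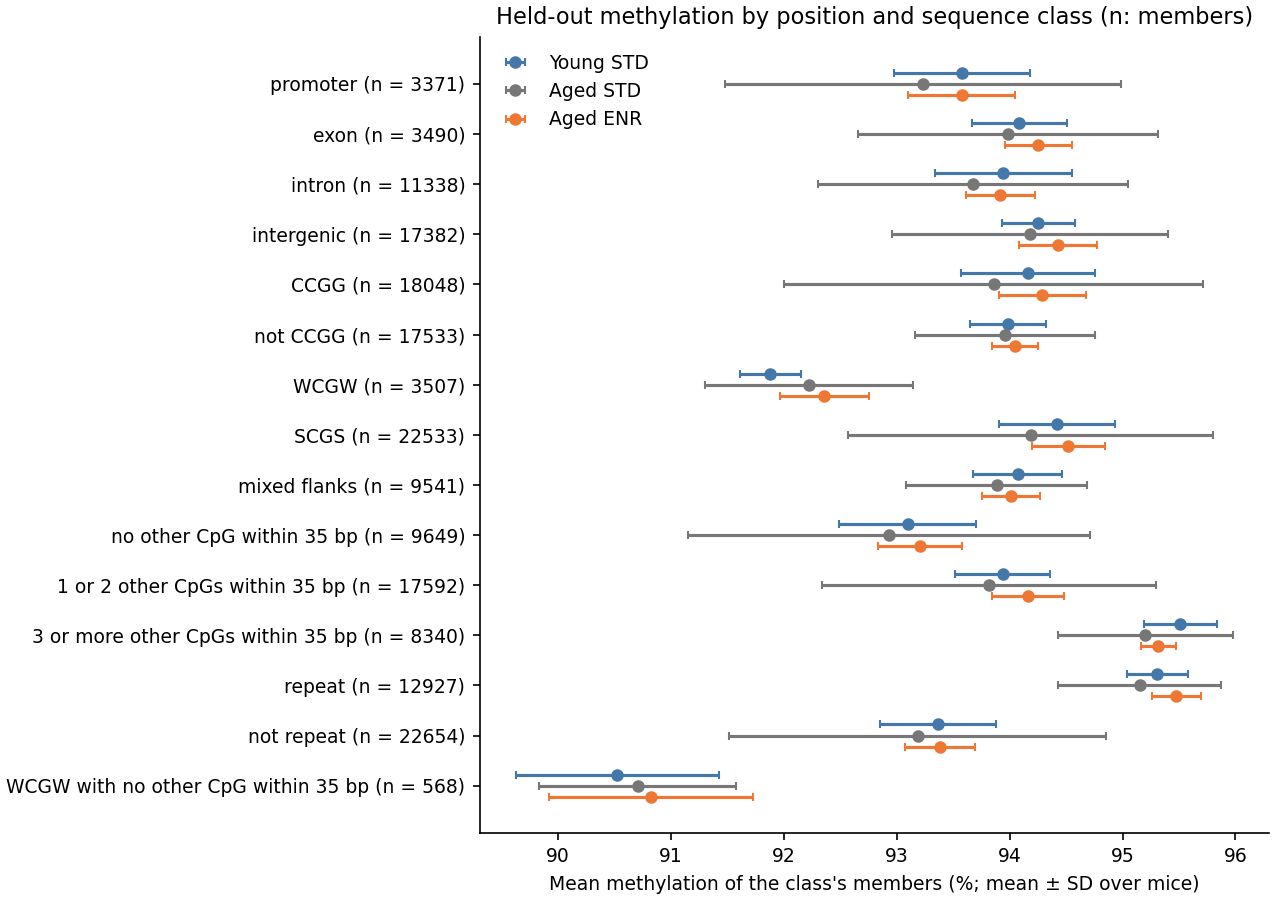
Mean methylation (%) of the chosen CpGs in each position and sequence class, as mean ± SD over the 4 held-out Young STD and the 8 mice of each aged group, with the number of CpGs. WCGW and isolated CpGs lie below the others in all 3 groups, and repeats and CpGs with 3 or more others within 35 bp lie above.

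Isolated CpGs were likewise lower. The 9649 with no other CpG within 35 bp had 93.1%, 92.9% and 93.2% in the Young STD, Aged STD and Aged ENR groups, the 17592 with 1 or 2 had 93.9%, 93.8% and 94.2%, and the 8340 with 3 or more had 95.5%, 95.2% and 95.3%. The isolated were lower than those with 3 or more in 20 of 20 mice, by 2.24 points (SD 0.772; adjusted p = 2.29e-06, exact sign-flip). The order by isolation held within each flank class, and that by flanks within each isolation class. Over the 20 mice, the mean rose from 90.7% ± 0.848 (SD, n = 20) at 568 isolated WCGW CpGs through 93.7% ± 0.589 at 945 WCGW CpGs with 3 or more others, and from 93.4% ± 1.33 at 7810 isolated SCGS CpGs to 95.7% ± 0.645 at 4294 SCGS CpGs with 3 or more. At isolated WCGW CpGs the Young STD mice had 90.5% ± 0.899, the Aged STD mice 90.7% ± 0.870 and the Aged ENR mice 90.8% ± 0.902 (SD over mice).

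CpGs in repeats had more methylation than the rest, in young mice as well. Of the CpGs covered in both young sets, the choice had taken 42.2% in repeats and 14.8% outside. The part of the choice in this difference was not tested. The 12927 in soft-masked sequence had 95.3%, 95.2% and 95.5% in the Young STD, Aged STD and Aged ENR groups, against 93.4%, 93.2% and 93.4% at the 22654 outside, and the difference was positive in 20 of 20 mice, with a mean of 2.01 points (SD 0.627; adjusted p = 2.29e-06, exact sign-flip). Promoter CpGs (3371) had 93.6%, 93.2% and 93.6%, and were lower than the 17382 intergenic CpGs in 20 of 20 mice, by 0.854 points (SD 0.464; adjusted p = 2.29e-06, exact sign-flip). The CCGG context made no difference that passed (0.0916 points, SD 0.737, higher in 15 of 20 mice; p = 0.688, exact sign-flip, highest of the 6). The departure of the chosen CpGs from 100% exceeded that of the 70120 counterparts from 0% in 20 of 20 mice, by 3.29 points (SD 0.966; adjusted p = 2.29e-06, exact sign-flip). The counterparts had means of 2.87% ± 0.264 (SD, n = 4), 2.76% ± 0.235 (SD, n = 8) and 2.45% ± 0.111 (SD, n = 8) in the Young STD, Aged STD and Aged ENR groups. Classes overlap, and the reads behind their values are unknown.

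**Figure D5:**
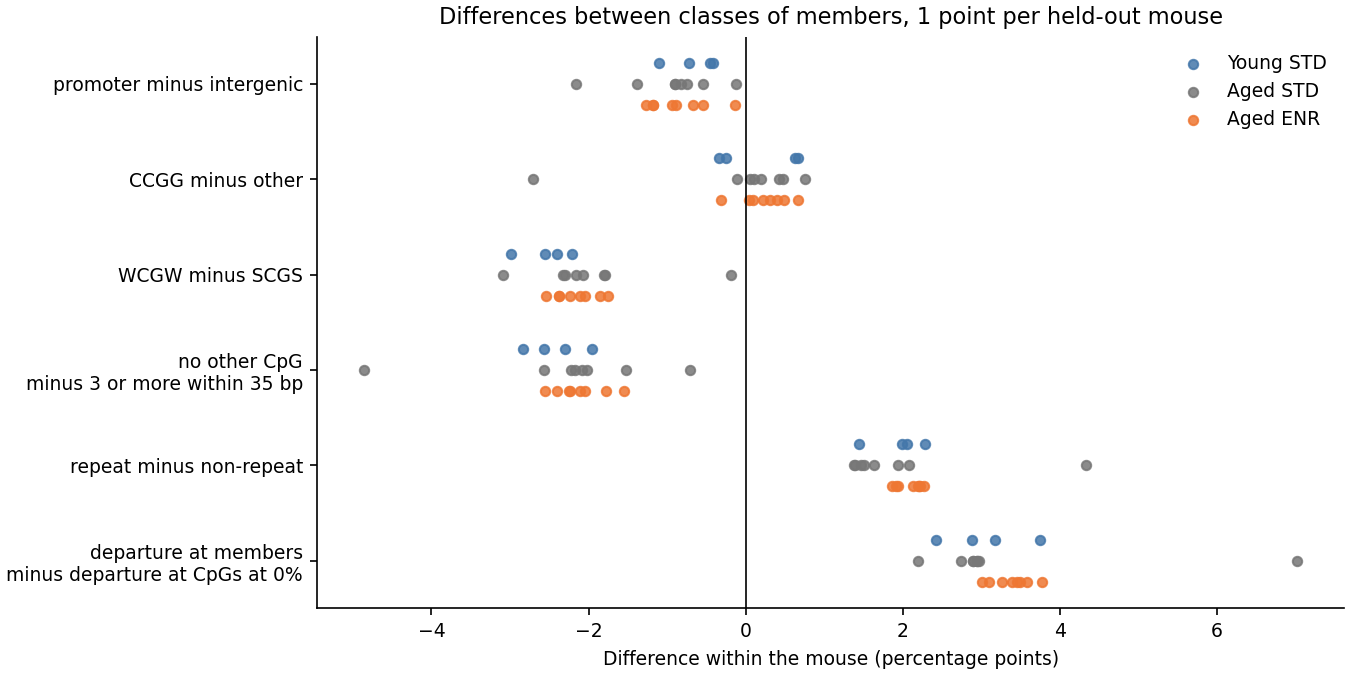
Differences between classes of the chosen CpGs within each held-out mouse, in percentage points, with 1 point per mouse and colours for the 3 groups. All 20 mice lie on the same side of 0 in every comparison but that of CCGG, and the grey points at -2.71, -4.86, 4.32 and 7.02 are Aged STD 5.

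No difference between groups passed in any of the 15 classes (adjusted p = 0.994 for each, exact permutation, over 45 tests). The difference nearest to the threshold was that of WCGW CpGs, which were 0.478 points higher in Aged ENR than in Young STD mice (unadjusted p = 0.0283, exact permutation). No group difference in the 6 within-mouse differences passed either (adjusted p of at least 0.909, exact permutation, over 18 tests). Leaving out Aged STD 5 changed this for 2 of the 12 comparisons that involve Aged STD mice. The advantage of repeats was then 0.463 points larger in Aged ENR than in Aged STD mice (adjusted p = 0.0187, exact permutation), and the excess departure from 100% over the departure from 0% was 0.586 points larger (adjusted p = 0.00373, exact permutation), against 0.126 points and 0.0585 points with all mice. The mean of the chosen CpGs differed by only 0.206 points in that comparison, while the counterparts at 0% were at 2.68% to 3.15% in the 7 Aged STD mice and at 2.27% to 2.59% in Aged ENR mice, so that more of the second difference lay in the counterparts than in the chosen CpGs.

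CpG by CpG, the size criterion of the study was a group difference over 25 points. All 35581 could be tested, and their shares are given beside those of all CpGs tested, which were not matched for coverage or for level. No difference between these shares was tested. Between Aged STD and Young STD mice, 1007 of them (2.83%) were lower by over 25 points, against a background of 5.88% of 378369 CpGs, and 1286 (3.61%) were higher, against 4.61%. Between Aged ENR and Aged STD mice, 713 (2.004%) were lower, against 4.19%, and 888 (2.496%) were higher, against 3.46%. Between Aged ENR and Young STD mice, 824 (2.32%) were lower, against 6.02%, and 1260 (3.54%) were higher, against 3.96%. Each pair of these comparisons shares the mice of a group. The median difference of the chosen CpGs was 0 points in all 3 comparisons, as it was over all CpGs.

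With mice as replicates, limma called 0 of the chosen CpGs in every comparison (adjusted p below 0.05 and over 25 points apart). Its background rates over all CpGs were 0.0156% for Aged STD against Young STD, 0.00159% for Aged ENR against Aged STD and 0.0148% for Aged ENR against Young STD mice. At an unadjusted p under 0.05, limma had 940, 536 and 988 of the chosen CpGs, or 2.64%, 1.51% and 2.78%, beside 2.90%, 1.82% and 2.95% of all CpGs. Of these chosen CpGs, 135, 255 and 139 were lower in the first-named group. The same split over all CpGs is not given. The part of the ceiling at 100% and of the unequal group sizes in this split was not tested. It is therefore not read as a gain with age or as particular to the chosen CpGs. The mean difference over the chosen CpGs was -0.0687 points for Aged STD and -0.0749 points for Aged ENR mice, each against Young STD. Only 2 CpGs had an adjusted p under 0.05 with a smaller difference, and they were singled out for this after their values were seen. The first, at chr2:132677535 in the promoter of Gm14098, ranged from 68.4% to 82.6% in 3 young mice and was at 100% in all 6 Aged STD and 5 Aged ENR mice with a value. It was 23.0 points higher in Aged STD than in Young STD mice (SE 2.24, limma adjusted p = 0.00826). The second, at chr13:63959640 and outside any gene, ranged from 76.3% to 92.5% in 3 young mice and was at 100% in 7 Aged STD mice, 15.2 points higher (SE 2.15, limma adjusted p = 0.0362). Both were thus higher in aged mice. Their spread lay almost wholly in the 3 young mice, and limma drew little on other CpGs for it (prior degrees of freedom 0.357). These adjusted p values therefore rest on few values.

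Single CpGs with large group differences showed what these differences were made of. Among the 4246 CpGs with a value in all 4 held-out young and at least 7 mice of each aged group, 19 were picked, as those lowest in Aged STD or Aged ENR relative to Young STD mice or lowest or highest in Aged ENR relative to Aged STD mice. CpGs that were highest relative to young mice were not picked. More of the chosen CpGs were higher than lower by over 25 points with age, unlike all CpGs tested. The picked values are therefore a description, and none passed limma with adjustment over all CpGs. At chr6:123128384 in an intron of Clec4a2, which encodes a C-type lectin receptor of myeloid cells, all 4 Young STD mice had 100%. Aged STD mice ranged from 2.38% through a median of 71.2% to 100%, and Aged ENR mice from 60.4% through 100% to 100%. Of the Aged STD mice, 3 stayed at 100% and 2 fell under 50%, so the groups overlapped at the top, with means of 100%, 68.5% ± 34.5 (SD, n = 8) and 92.5% ± 14.97 (SD, n = 7).

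At chr12:33607341, outside any gene, the young mice had 94.7%, 100%, 100% and 100%. Aged STD mice ranged from 23.5% through 66.7% to 100%, and Aged ENR mice from 0% through 68.9% to 100%. Lower values appeared in both aged groups, whose means were 65.8% and 70.3% against 98.7%. Both aged groups also had lower means than young mice at chr11:75958008, which lies 19579 bp from the nearest start site, that of Rph3al, with means of 89.3%, 57.6% and 65.4% in the Young STD, Aged STD and Aged ENR groups. At chr1:7370598 in an intron of Gm26901 the means were 93.8%, 62.7% and 87.9% in the same order, and 2 Aged STD but 0 Aged ENR mice were under 50%.

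The neighbouring CpGs at chr1:19441841 and chr1:19441803 on the minus strand were low in all groups although they had been at 100% in the mice that chose them. At the first, the young mice had 65.0%, 63.9%, 34.8% and 36.4%, Aged STD mice ranged from 0% through 0% to 52.4%, and Aged ENR mice from 0% through 16.04% to 100%. At the second, the young mice had 57.9%, 64.2%, 34.0% and 17.1%, Aged STD mice ranged from 0% through 7.52% to 100%, and Aged ENR mice from 0% through 0% to 28.3%. The means fell in the order Young STD, Aged ENR, Aged STD at the first (50.02%, 35.7%, 13.5%) and Young STD, Aged STD, Aged ENR at the second (43.3%, 25.6%, 8.498%).

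Lower values in Aged ENR mice were found in an intron of Tiam1, which encodes an activator of the small GTPase Rac with a role in dendritic spines. At chr16:89988698 the young mice had 90.1%, 63.4%, 100% and 100%. Of 8 Aged STD mice, 7 had 100% and the last 2.27%, and Aged ENR mice ranged from 0% through 85.1% to 100%, with 3 of 7 under 50%. The group means were 88.4% ± 17.3 (SD, n = 4), 87.8% ± 34.6 (SD, n = 8) and 53.5% ± 50.2 (SD, n = 7). Every value was thus either at most 2.27% or at least 63.4%.

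Aged ENR mice were also lower at chr19:59279561 in an intron of Slc18a2, the vesicular monoamine transporter gene, and at chr2:168183412 in an exon of Adnp, which encodes a chromatin-associated neuroprotective factor. At Slc18a2 the young mice had 100%, 0%, 100% and 100%, Aged STD mice ranged from 84.4% through 100% to 100%, and Aged ENR mice from 0% through 66.7% to 100%. At Adnp all 4 young mice had 100%, Aged STD mice ranged from 96.6% through 100% to 100%, and Aged ENR mice from 0% through 87.2% to 100%. In each gene 2 Aged ENR mice were at 0%, and the groups overlapped. In the promoter of Aacs, an enzyme that activates acetoacetate, at chr5:125475119, the young mice had 88.3%, 82.9%, 78.6% and 72.5%, Aged STD mice 81.0% through 100% to 100%, and Aged ENR mice 0% through 69.6% to 100%. At chr1:38680082, 15127 bp from the start of Aff3, the means were 43.1%, 75.7% and 37.0%.

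Higher values in Aged ENR than in Aged STD mice were seen in an intron of Sh3gl3, which encodes an endophilin of synaptic vesicle recycling. At chr7:82239880 the young mice had 81.6%, 81.6%, 100% and 0%, Aged STD mice ranged from 0% through 75.5% to 100%, and Aged ENR mice from 93.2% through 100% to 100%. The Aged ENR mice were tightly grouped at 99.03% ± 2.56 (SD, n = 7), whereas Aged STD mice were at 59.1% ± 45.8 (SD, n = 8). At chr14:50238854, 29 bp from the start of the olfactory receptor gene Olfr731, the young mice had 77.8%, 100%, 100% and 100%, Aged STD mice ranged from 0% through 90.5% to 100%, and Aged ENR mice from 81.8% through 100% to 100%. At chr3:34593957 in an intron of Sox2ot, a non-coding RNA gene that overlaps Sox2, the young mice had 66.7%, 100%, 71.9% and 51.4%, Aged STD mice ranged from 0% through 61.2% to 87.9%, and Aged ENR mice from 46.9% through 68.0% to 100%. At chr2:169101766, outside any gene, the means were 69.2%, 65.2% and 97.7%. In all of these the Aged STD range reached 0% and overlapped the Aged ENR range.

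The remaining 4 of the 19 had wide spreads too. In an intron of Gm12682 at chr4:99683951 the means were 91.3%, 82.5% and 52.4% in the Young STD, Aged STD and Aged ENR groups. At chr12:58891943 they were 94.6%, 76.0% and 56.8%, at chr12:37219379 97.2%, 89.2% and 63.4%, and in an intron of 1700112H15Rik at chr1:184543944 they were 81.4%, 50.7% and 81.5%. The widest group SD at these 4 CpGs was between 36.5 and 48.0 points.

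By gene, the chosen CpGs were nearest to 13627 genes, with a median of 2 per gene, and 241 genes had at least 10. The most, 31 of 63 covered CpGs, were nearest to Ttn, the gene of the giant muscle protein titin, with means over its CpGs of 94.6%, 92.4% and 96.4% in the Young STD, Aged STD and Aged ENR groups. The antisense gene Gm13938 within it had another 31 of 57, with 98.1%, 98.3% and 95.8%. Robo1, a guidance receptor of axons, had 23 of 69, with 95.2%, 94.0% and 90.6%. Fn1, which encodes the matrix protein fibronectin, had 23 of 36, with 95.7%, 96.5% and 93.2%. Fat1, an atypical cadherin, had 23 of 56, with 98.4%, 97.9% and 97.0%. Dst, a cytoskeletal linker, had 22 of 55, with 92.8%, 93.0% and 93.7%, and Wwox, an oxidoreductase, had 20 of 37, with 95.2%, 96.4% and 95.8%. The pseudogenes Gm48944 (30 of 35) and Eif3s6-ps1 (21 of 26) and the microRNA gene Gm23697 (22 of 26) completed the 10, with means between 93.0% and 99.3%.

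Among the 241 genes, the Aged STD mean minus the Young STD mean ran from -9.07 to 14.4 points. It was lowest at Gm10403 (98.7% in Young STD, 89.6% in Aged STD), the non-coding 4732465J04Rik (99.6% and 90.7%), Epb41l4a (91.9% and 83.6%), Foxp1 (93.0% and 85.02%) and Palld (88.8% and 81.1%). Foxp1 encodes a forkhead transcription factor of neurons, and Palld a protein of the actin cytoskeleton. At the 10 CpGs nearest to Foxp1 the young mice had means of 90.5%, 96.6%, 94.4% and 92.7%, while Aged STD mice ranged from 36.3% to 100% and Aged ENR mice from 49.8% to 100%. Of the Aged STD mice, 3 had 36.3%, 55.1% and 71.8% and the others at least 86.8%, and Aged ENR 3 had the 49.8%, while the other Aged ENR mice had at least 89.7%. The difference was highest at the pseudogene Gm14263 (81.7% and 96.1%), Gm22773 (84.2% and 95.3%), the phosphodiesterase gene Pde11a (87.9% and 96.8%), Trerf1 (84.2% and 92.2%) and 1700112K13Rik (88.2% and 96.0%).

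The Aged ENR mean minus the Aged STD mean ran from -16.6 to 15.4 points over the same genes. It was lowest at Adamts20, a secreted metalloprotease gene, with 16 CpGs and means of 89.0%, 89.1% and 72.5% in the Young STD, Aged STD and Aged ENR groups, where Aged STD mice ranged from 52.4% to 100% and Aged ENR mice from 25.8% to 100%. Trerf1 followed with 92.2% and 77.3% in Aged STD and Aged ENR mice, then the pseudogene AC164009.1 (97.0% and 85.8%), Gm26350 (91.6% and 82.8%) and Gm11620 (93.8% and 85.9%). It was highest at Epb41l4a, a gene of the band 4.1 family, whose 13 CpGs had 83.6% and 99.02%. There the young mice had 96.8%, 98.1%, 90.4% and 84.2%, Aged STD mice ranged from 75% to 99.7% and Aged ENR mice from 95.004% to 100%. Elavl4, which encodes the neuronal RNA-binding protein HuD, came next with 84.4% and 92.6%, followed by Gm12428 (94.1% and 99.86%), Gm10403 (89.6% and 95.3%) and Gm48555 (93.3% and 98.8%). These genes were picked by the differences given, which are therefore a description.

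The share of covered CpGs that the choice took differed between gene lists, which describes the values of Young STD 1 to 4 and is no result. In germline genes, which are silenced by methylation in body cells, 34 of 105 covered CpGs (32.4%) were among the chosen, and 18 of these lay within 1 kb of a start site. They included 5 of 9 at Mov10l1 and 5 of 8 at Slc25a31. In microglia genes it was 22 of 76 (28.9%), with 11 of 38 at Cx3cr1, the fractalkine receptor, and in endothelial genes 11 of 66 (16.7%). The share over all genes and intergenic sequence was 19.3%. It was 13.5% (20 of 148) in genes of the methylation machinery, 12.4% (85 of 687) in synapse genes, 11.2% (12 of 107) in oligodendrocyte genes, 9.76% (29 of 297) in granule neuron genes, 6.40% (16 of 250) in interneuron genes and 4.17% (6 of 144) in astrocyte genes. No share was tested.

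The size criterion was met by between 0 and 9 CpGs of each list in the comparison with young mice. Between Aged STD and Young STD mice, 4 of 34 CpGs of germline genes were lower by over 25 points and 2 higher, beside 2.83% and 3.61% of all chosen CpGs. In synapse genes it was 3 lower and 6 higher of 85, in granule neuron genes 3 lower and 0 higher of 29, in interneuron genes 1 and 1 of 16, in endothelial genes 1 and 0 of 11, in microglia genes 0 and 1 of 22, in oligodendrocyte genes 0 and 1 of 12, in astrocyte genes 0 and 1 of 6 and in the methylation machinery 0 and 0 of 20. Between Aged ENR and Aged STD mice, 1 CpG was lower and 5 were higher in germline genes, beside 2.004% and 2.496% of all chosen CpGs. It was 5 and 2 in synapse genes, 2 and 0 in granule neuron genes, 0 and 1 in interneuron genes, and 0 in both directions in the other 5 lists. No count was tested. The median difference of Aged STD from Young STD mice was 0 points in germline, interneuron, microglia, endothelial, synapse and methylation machinery genes, -0.439 in granule neuron, -2.96 in oligodendrocyte and 3.77 in astrocyte genes. That of Aged ENR from Aged STD mice was 0.189 points in synapse genes and 0 in the other 8 lists. Over all chosen CpGs both medians were 0.

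The 3 low CpGs of the granule neuron list were all at Glis3, a zinc finger transcription factor. Its 8 chosen CpGs had means of 99.2% for Young STD, 86.6% for Aged STD and 79.6% for Aged ENR mice. The median difference over these CpGs was -4.07 points between Aged STD and Young STD mice, and 2.45 points between Aged ENR and Aged STD mice, which is opposite in sign to the difference of the means. Dsp, which encodes desmoplakin and marks granule neurons, had 11 of 23 covered CpGs among the chosen, with 98.9%, 94.3% and 97.2%, and Maml2, a coactivator of Notch signalling, had 7 of 19, with 99.7%, 95.6% and 99.3%. Over the whole granule neuron list the young mice had 98.6% ± 1.70 (SD, n = 4), Aged STD mice 92.9% ± 4.89 (SD, n = 8) and Aged ENR mice 93.8% ± 3.73 (SD, n = 8). The aged ranges, 82.3% to 98.1% and 89.5% to 98.9%, overlapped the young range of 96.6% to 100%.

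Other lists held single genes with several chosen CpGs. In Reln, the interneuron gene of reelin, 12 of 33 covered CpGs were chosen and had 91.7%, 93.1% and 95.1% in the Young STD, Aged STD and Aged ENR groups, and in Erbb4, a neuregulin receptor, 4 of 32 had 100%, 100% and 99.3%. Among synapse genes, Nrxn3, a presynaptic adhesion gene, had 13 of 45 with 90.2%, 97.2% and 96.7%, and the calcium channel genes Cacna1c and Cacna1a had 10 of 59 with 89.0%, 88.3% and 90.3% and 9 of 37 with 89.97%, 85.6% and 84.8%. Tet1, Tet2 and Dnmt1 had 7 of 31, 5 of 14 and 5 of 11. The means were 95.2%, 95.9% and 98.6% at Tet1, 98.0%, 96.0% and 98.2% at Tet2, and 93.1%, 96.6% and 87.7% at Dnmt1. Cx3cr1 had 87.2%, 88.0% and 92.9%, and Tmem119 and P2ry12, which mark resident microglia, had 100%, 96.6% and 93.8%, and 100%, 95.7% and 99.96% in the same order. Flt1, an endothelial growth factor receptor, had 6 of 39 with 88.7%, 92.0% and 91.8%, Pecam1 had 4 of 9 with 96.6%, 89.9% and 95.2%, and Kdr 1 of 7 with 97.3%, 88.3% and 87.7%. The myelin genes Mag, Mog and Mbp had 4, 3 and 2 chosen CpGs, with means of 97.0%, 94.6% and 91.9% at Mag, 95.04%, 89.3% and 100% at Mog, and 72.7%, 100% and 100% at Mbp. In astrocyte genes, the glutamate transporter genes Slc1a3 and Slc1a2 had 3 and 1, with 88.9%, 100% and 97.4%, and 91.8%, 99.3% and 86.4%, and the growth factor receptor gene Fgfr3 had 2, with 78.3%, 84.3% and 87.5%. Over their whole lists, Young STD mice had 93.1% ± 4.87 (SD, n = 4) at oligodendrocyte and 89.0% ± 15.8 (SD, n = 4) at astrocyte genes. Aged STD mice had 94.3% ± 8.12 (SD, n = 8) and 95.7% ± 9.51 (SD, n = 8), and Aged ENR mice 93.2% ± 7.06 (SD, n = 8) and 92.9% ± 11.8 (SD, n = 8), so that the groups overlapped. In the germline list, Mov10l1, a helicase of piRNA production, had 83.4%, 75.1% and 85.5%, Slc25a31 95.9%, 92.7% and 98.4%, and the bromodomain gene Brdt 95.8%, 92.2% and 94.2%.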

How the data were processed

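Genomic DNA of the dentate gyrus of 24 mice was profiled by RRBS, with 8 mice per group. According to the submitters' processing notes, reads were trimmed with Trim Galore 0.4.0 and cutadapt 1.8.1, aligned to mm10 with Bismark 0.16.1 and filtered with methylKit 1.5.2. The authors deposited a table of percent methylation per CpG, strand and mouse, restricted to CpGs with at least 10 reads, coverage up to the 99.9th percentile and values in at least 3 mice per group. The table holds no read counts, so depth is known only as the number of CpGs with a value, and no interval for a single value was computed.

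The 35581 CpGs were selected on the values of Young STD 1 to 4, and the members, classes and gene lists were chosen with earlier results of these data known. Groups follow the labels, which name separate mice. Features come from GENCODE M21 and sequences from RefSeq on GRCm38. Promoters were within 1000 bp of a start site, and other CpGs were counted within 35 bp. CpGs were given the gene whose start site lay nearest. Named genes had the most chosen CpGs or, among those with at least 10, the 5 lowest and 5 highest group differences, or were the 3 genes of a list with the most chosen CpGs. In the synapse list Dlg2 and Dlgap2 tied with Cacna1a at 9 chosen CpGs and were left out. Named CpGs were the 5 lowest in each comparison, and the 5 highest between Aged ENR and Aged STD mice, among those with a value in all 4 held-out young and at least 7 mice of each aged group.

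Per-mouse means and shares were compared by exact two-sided permutation over mice, adjusted by Benjamini-Hochberg over 9 tests. Within-mouse class differences were tested by an exact sign-flip test over 20 mice, which was added after the data were seen. Single CpGs were tested with limma 3.58.1 in R 4.3.3 on group means over 378369 CpGs, with adjustment over all of them. Tables were handled in Python 3.11.15 with pandas 2.3.3, numpy 2.4.6 and scipy 1.17.1. The limma and permutation steps were tested on simulated data. Mice of the same number were not paired by their deviations (mean correlation -0.00728 over 16 pairs).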

Additional observations from a re-analysis of the deposited data

Results flagged for a closer look

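Of 84 groups of 4 to 8 mice examined, 24 held a mouse set apart from the others by more than Dixon's 95% limit, where chance gives about 1 in 20. Aged STD 5 accounted for 6 of them. Its mean methylation was 90.7%, its difference between CCGG and other CpGs -2.71 points, that between WCGW and SCGS CpGs -0.191, that between isolated CpGs and those with 3 or more others -4.86, that between repeats and the rest 4.32, and its excess departure from 100% over the departure from 0% was 7.02 points. Aged STD 6 stood apart in the share of values at 100%, 71.5%.

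The other 17 were single CpGs among the 19 described, where groups at or near 100% make a lone lower value stand out. Young mice stood apart at chr12:33607341 (Young STD 5, 94.7%), chr11:75958008 (Young STD 6, 57.1%), chr1:7370598 (Young STD 6, 75.2%), chr4:99683951 (Young STD 8, 65.1%), chr12:58891943 (Young STD 8, 78.2%), chr12:37219379 (Young STD 6, 88.9%), chr14:50238854 (Young STD 5, 77.8%) and chr19:59279561 (Young STD 6, 0%). Aged STD mice did so at chr16:89988698 (Aged STD 1, 2.27%), chr12:37219379 (Aged STD 3, 57.6%), chr19:59279561 (Aged STD 6, 84.4%) and chr2:168183412 (Aged STD 6, 96.6%). Aged ENR mice did so at chr12:33607341 (Aged ENR 5, 0%), chr6:123128384 (Aged ENR 4, 60.4%), chr7:82239880 (Aged ENR 8, 93.2%), chr2:169101766 (Aged ENR 7, 81.7%) and chr14:50238854 (Aged ENR 6, 81.8%).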

How the results depend on the processing

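No alternative gave an adjusted p under 0.05 for the 9 per-mouse differences, and 62 of their 72 values from settings other than leaving out a mouse had the same sign. The other 10 turned. With only the 981 CpGs that had a value in all 20 mice, Aged ENR mice differed in mean methylation by -0.0606 points from Aged STD and -0.207 from Young STD mice, and by 0.701 points from Young STD mice in values under 50%. With values centred per CpG, the last 2 were -0.0365 and 0.145. The difference in values under 50% between Aged ENR and Young STD mice was 0.131 with all 4 defining values, 0.106 with at least 5 mice in each aged group and 0.118 without CCGG CpGs. With the young sets swapped, the difference in values at 100% between Aged STD and Young STD mice was -1.83.

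With a replicate block, although equal numbers were not seen to pair mice, that difference was -1.22 (p = 0.875, exact sign-flip test, 4 pairs, smallest possible p 0.125). With this block limma called 8, 2 and 5 CpGs for Aged STD against Young STD, Aged ENR against Aged STD and Aged ENR against Young STD. Rates over all CpGs with this block are not given, so these calls are not read as particular to the chosen CpGs.

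In the same order of comparisons, leaving out a mouse gave mean differences of -0.356 to 0.302, -0.206 to 0.362 and -0.100 (without Young STD 5) to 0.197 points, differences in values under 50% of 0.0250 to 0.923, -0.945 to -0.0477 (0.0250 and -0.0477 without Aged STD 5) and -0.190 to 0.287, and in values at 100% of -1.22 to 2.43, -2.77 to 0.942 and -2.19 to 1.58. Without Aged STD 5, 2 class differences between Aged ENR and Aged STD mice passed, 0.463 for repeats and 0.586 for the departure, and others turned: 0.0943 (CCGG), -0.315 (repeats) and -0.261 (departure) between Aged STD and Young STD, and -0.0743 (promoter), -0.0357 (CCGG), 0.0604 (WCGW) and -0.219 (isolated) between Aged ENR and Aged STD mice. The 5 bins then gave -0.104, -0.318, -0.197, -0.614 and -2.31.

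Counts of CpGs over the size limit, lower then higher in each comparison, were 4834, 4835, 4396, 4504, 4660 and 4736 at 10 points and 76, 104, 38, 45, 59 and 84 at 50 points, of 35581 CpGs. With all 4 held-out young and at least 5 mice of each aged group, they were 163, 198, 123, 139, 129 and 190 of only 12423 CpGs. With medians at 25 points, the counts in the same order were 596, 902, 527, 563, 529 and 863 of 35581 CpGs. Leaving out a mouse gave 467 to 1192, 818 to 1310, 313 to 904, 418 to 1099, 371 to 991 and 828 to 1289. The lowest counts came without Young STD 5, 6, 7 or 8 (555, 559, 652 and 467 lower in Aged STD than in Young STD mice). Only 20503, 21346, 24789 and 19904 CpGs could then be counted, since the others fell under 3 young values. limma called 2, 0 and 1 on the arcsine scale, 2, 0 and 2 with no size limit, 2, 0 and 3 with swapped sets, and 0 to 4, 0 to 2 and 0 to 5 with a mouse left out. Rates over all CpGs are not given for these settings. The counts are therefore not read as particular to the chosen CpGs. A coverage minimum was not tried, because the table has no read counts.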
